A study of Mus musculus with 32 samples.

Results

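The genes described here build and run the endoplasmic reticulum route of protein secretion: signal recognition and import, signal peptide removal, glycosylation, folding, disulfide formation, disposal of misfolded chains and the stress response that adjusts them. The list holds 40 genes, and 39 had a probe set of their own among the 45037 non-control probe sets of the array, which cover 18193 genes with 1 symbol. The probe set of Sec61g, a small subunit of the import channel, was shared with other genes and was not used. For each gene the probe set with the highest mean over all arrays was taken, and all 39 passed the filter on dim probe sets. The arrays measured RNA of peripheral lymph node, mesenteric lymph node, spleen and thymus from female C57BL/6 mice aged 12 weeks. The transgenic group, titled CD2-CD30L, overexpressed CD30 ligand in T cells, and the control group, called wild type here, was their non-transgenic littermates. Each genotype had 4 mice and every mouse gave each of the 4 tissues, so there are 32 arrays. The transgenic mice were made to learn what contact between CD30 and its ligand does in living animals, and the labels give no number of founder lines.

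The endoplasmic reticulum is where proteins bound for the cell surface or for export are threaded through the Sec61 channel, trimmed, glycosylated and folded by chaperones such as Hspa5 (BiP). When unfolded chains accumulate, the sensors Ire1, Perk and Atf6 raise chaperone and degradation genes through the transcription factors Xbp1, Atf4 and cleaved Atf6. In lymphoid tissue the route is best known from plasma cells, which enlarge it under Xbp1 to export antibody, while resting lymphocytes and thymocytes secrete little.

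Some of these genes carry a known stress element in their promoter, and they are shown because 8 of the genes described below hold one. Of the 4 genes that differed most between thymus and peripheral node (Edem1, Herpud1, Atf6 and Pdia4), only Herpud1 is among them. RefSeq promoters of build GRCm38.p6 were given for 31 of the 40 genes, and the 250 bases before each start were searched on both strands. The endoplasmic reticulum stress response element, CCAAT and CCACG with 9 bases between them, stood in 7 of these 31 promoters (22.6%) against 35 of 27025 genes (0.13%). The second element, ATTGG and CCACG with 1 base between them, stood in 1 of 31 (3.23%), against 10 of 27025 genes (0.037%), and TGACGTGG, the core of the unfolded protein response element, in 0 of 31 against 0.603% of genes. CCACG alone, which is part of the first pair of elements, stood in 20 of 31 (64.5%) and in 31% of genes. The letters are textbook forms of the elements, and the list takes in known stress response genes. The higher shares therefore describe how the list was put together and test nothing. A match is a string of letters in a window and not a measured binding site. The stretches below run 5′ to 3′ on the gene's strand with 20 bases on each side of the element, and capitals mark its outer fixed parts. On Calr and on the Hsp90b1 copy nearer the start the element lies on the opposite strand, so it reads CGTGG then ATTGG.
Hspa5, chr2:34772005-34772063, plus strand: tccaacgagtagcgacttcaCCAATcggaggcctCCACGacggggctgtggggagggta
Hsp90b1, chr10:86705513-86705571, minus strand: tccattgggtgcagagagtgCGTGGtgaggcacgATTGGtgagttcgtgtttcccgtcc
Hsp90b1, chr10:86705618-86705676, minus strand: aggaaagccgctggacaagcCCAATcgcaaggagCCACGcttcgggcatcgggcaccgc
Calr, chr8:84847055-84847113, minus strand: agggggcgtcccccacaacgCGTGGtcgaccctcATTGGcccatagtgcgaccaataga
Canx, chr11:50325780-50325838, minus strand: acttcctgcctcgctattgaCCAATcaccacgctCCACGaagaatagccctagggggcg
Pdia6, chr12:17266471-17266529, plus strand: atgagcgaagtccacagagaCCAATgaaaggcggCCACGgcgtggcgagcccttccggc
Dnajc3, chr14:118937807-118937865, plus strand: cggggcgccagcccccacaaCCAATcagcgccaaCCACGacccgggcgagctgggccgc
Syvn1, chr19:6046512-6046570, plus strand: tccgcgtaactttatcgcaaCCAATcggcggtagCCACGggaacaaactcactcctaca
Herpud1, second element, chr8:94386357-94386407, plus strand: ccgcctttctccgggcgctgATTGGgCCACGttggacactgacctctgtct

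Values are log2 of the deposited intensity plus 16, after quantile normalization over all 32 arrays where tissues are compared (the 32-array scale) and over the 8 arrays of a tissue where genotypes are compared (the tissue scale). Marker genes set the thymus apart: the 7 B cell genes averaged 10.54 to 10.96 in wild type lymph nodes and spleens and 6.20 to 6.47 in wild type thymi. The 8 thymocyte genes averaged 11.15 to 11.25 in wild type thymi. Glycam1 set lymph nodes apart, with 13.15 to 13.29 in wild type peripheral nodes, 12.96 to 13.06 in mesenteric nodes and 4 in wild type spleens and thymi. These genes were not used to tell the peripheral from the mesenteric label. Rag1, a recombinase of lymphocyte precursors, reached 9.30 in the spleen of wild type mouse 4, the highest value outside the thymus. Some lymph nodes carried RNA of neighbouring tissue, exocrine pancreas in the mesenteric nodes of wild type mouse 2 and transgenic mice 1 and 3, and skeletal muscle in the peripheral nodes of wild type mice 1 and 3 and transgenic mouse 1. The 3' to 5' signal ratio of Actb, a sign of RNA integrity, ran from 2.83 to 3.58 in the 4 spleens numbered 1 or 2 and from 1.65 to 1.85 in the 4 numbered 3 or 4. In thymus it was 2.23 to 2.25 in transgenic mice 1 and 2, 1.68 to 1.78 in wild type mice 1 and 2, and 1.34 to 1.43 in the 4 mice numbered 3 or 4. The mesenteric node of transgenic mouse 1 stood at 3.10, the other mesenteric nodes at 1.59 to 1.75. The labels do not say what the numbers mark. In spleen, deviations from the genotype means over all probe sets were correlated between transgenic and wild type mice. They correlated at 0.02 or more in the 8 pairs within a set of numbers (1 and 2, or 3 and 4). In the 8 pairs across sets they correlated at -0.04 or less. The sets are therefore given beside the genotype results of spleen and thymus and beside some correlations below. Comparisons between tissues were not run by set. Tnfsf8, the gene of CD30L, did not differ between genotypes by limma, with log2 fold changes from -0.10 ± 0.21 (SE, n = 4 per genotype, thymus) to 0.07 ± 0.10 (spleen) and adjusted p of 0.894 or more. No label says whether the transgene holds the part that its probe set covers, so it does not check the labels.

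The largest differences in these genes lay between tissues, with most of the folding, degradation and stress response genes lower in the thymus than in the other tissues. In wild type mice 22 of 39 genes were lower and 4 higher in thymus than in peripheral lymph node by limma at an adjusted p of 0.05. Among all probe sets kept 58.3% passed, 28.3% lower and 29.9% higher. Against mesenteric lymph node 27 were lower and 4 higher (25.3% and 29.8% of all probe sets), and against spleen 20 were lower and 6 higher (23.1% and 27.5%). The median log2 difference of the 39 genes was -0.31, -0.50 and -0.33 in that order, beside 0.01, 0.04 and 0.07 over all probe sets. The 3 comparisons share the thymus arrays, so they do not repeat each other independently. In transgenic mice, which are other animals, 20 genes were lower and 4 higher than in peripheral node (23.3% and 25.4% of all), 21 and 4 than in mesenteric node (23.2% and 27.3%), and 20 and 6 than in spleen (21.6% and 25.6%).

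**Figure D1:**
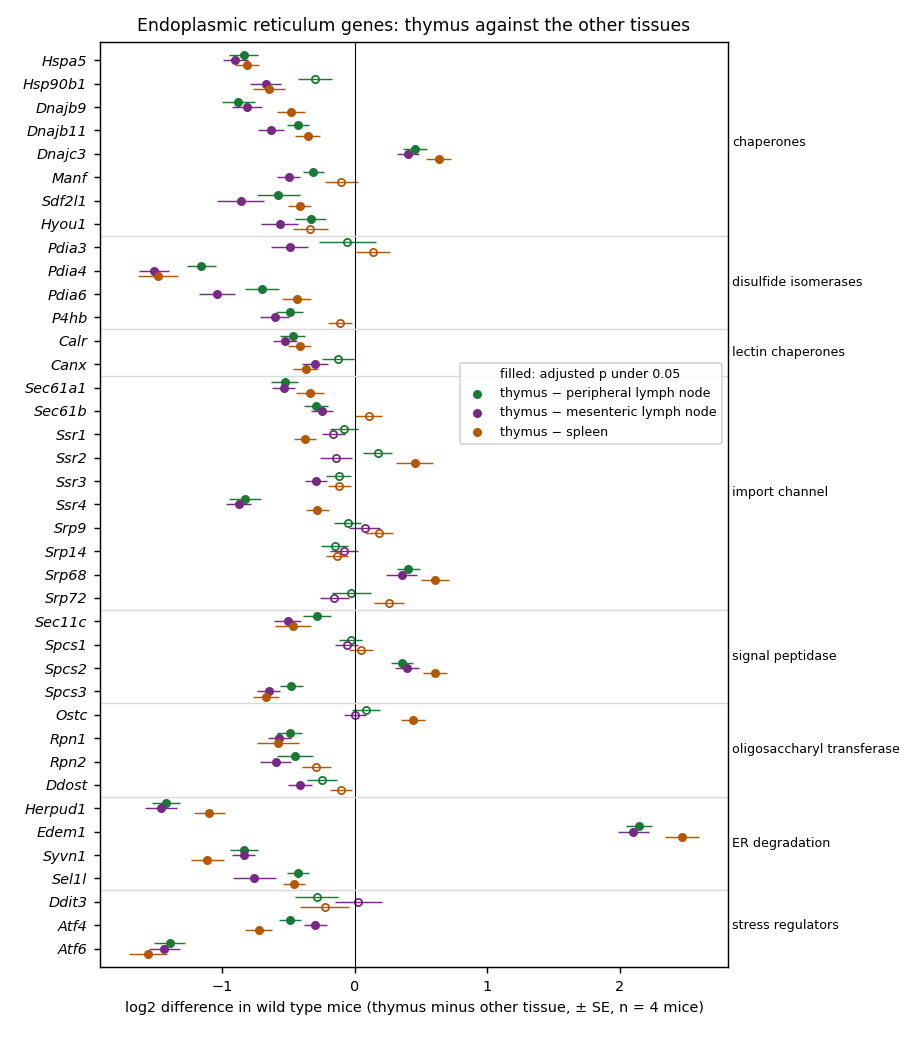
Log2 difference of each of the 39 genes between wild type thymus and 3 other tissues on the 32-array scale, with SE over 4 mice. Genes are grouped by role and filled points passed an adjusted p of 0.05. Edem1 lies alone on the right at more than 2 log2 units, while Pdia4, Atf6 and Herpud1 lie farthest left.

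Among the chaperones, which hold unfolded chains until they fold, Hspa5 had wild type values of 10.86, 10.90, 10.80 and 11.13 in the 4 thymi (mice 1 to 4). The same mice had 11.93, 11.81, 11.50 and 11.81 in peripheral lymph node, 11.94, 11.89, 11.63 and 11.83 in mesenteric lymph node, and 11.83, 11.76, 11.60 and 11.75 in spleen. The thymus lay below the other tissues in every mouse, without overlap. The log2 difference was -0.84 ± 0.11 (SE, n = 4 mice) against peripheral lymph node, or 0.559-fold, with an adjusted p of 0.00018. It was -0.90 ± 0.09 against mesenteric lymph node and -0.81 ± 0.09 against spleen. Hspa5 in transgenic thymi stood at 11.05, 11.22, 11.07 and 11.17. Of the 8 chaperones and cochaperones, 6, 7 and 5 were lower in the comparisons with peripheral node, mesenteric node and spleen, with medians of -0.38, -0.65 and -0.38. Hsp90b1 (Grp94), which folds integrins and Toll-like receptors, read 11.01, 11.32, 11.11 and 11.03 in wild type thymi and 11.68, 11.52, 11.18 and 11.29 in peripheral nodes. These 2 tissues overlap, and the difference of -0.30 did not pass (adjusted p = 0.0747), while -0.67 against mesenteric node and -0.65 against spleen did. Sdf2l1 and Dnajb11, partners of Hspa5, were lower by -0.58, -0.86 and -0.42 and by -0.42, -0.63 and -0.35 in the 3 comparisons.

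Pdia4 (ERp72), a disulfide isomerase, had some of the largest differences. Its wild type values were 8.06, 8.23, 7.92 and 7.99 in thymus, 9.24, 9.28, 9.18 and 9.13 in peripheral node, 9.70, 9.65, 9.38 and 9.54 in mesenteric node, and 9.11, 9.48, 9.81 and 9.72 in spleen. No thymus value reached the lowest value of another tissue. The differences were -1.16 ± 0.11, -1.52 ± 0.11 and -1.48 ± 0.15 (adjusted p = 2.76e-05 and 9.28e-06 for the lymph nodes), and the ratio to mesenteric node was 0.350-fold. Pdia6, another isomerase, was lower by -0.70, -1.04 and -0.44, and P4hb, the founding member of that family, by -0.49 and -0.60 against the nodes but not against spleen (-0.11, adjusted p = 0.341). Pdia3 (ERp57), which works with the lectin chaperones on glycoproteins, differed only from mesenteric node (-0.49) and stood at -0.05 and 0.14 elsewhere. The lectin chaperone Calr was lower by -0.47, -0.53 and -0.41. Its membrane partner Canx was lower by -0.30 and -0.37 against mesenteric node and spleen, with -0.13 against peripheral node (adjusted p = 0.389).

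Genes of degradation and the stress response included Herpud1 and Atf6, the lowest of the 39 in the comparison with peripheral node, and the largest rise. Herpud1, a scaffold of the degradation complex and a target of the stress response, read 8.81, 9.04, 9.03 and 9.13 in wild type thymi. In peripheral node it read 10.45, 10.49, 10.36 and 10.38, in mesenteric node 10.64, 10.28, 10.46 and 10.46, and in spleen 10.07, 10.04, 10.18 and 10.09. All thymi lay below all other tissues, by -1.42 ± 0.10 (0.373-fold, adjusted p = 6.05e-06), -1.46 ± 0.12 and -1.10 ± 0.12. Atf6, the membrane-bound sensor and transcription factor, read 6.91, 7.02, 6.46 and 6.60 in thymus and 8.18, 8.31, 8.01 and 8.07 in peripheral node. Its values were 8.13, 8.33, 8.04 and 8.23 in mesenteric node and 8.19, 8.28, 8.43 and 8.31 in spleen. The differences were -1.40 ± 0.12 (adjusted p = 1.42e-05), -1.44 ± 0.11 and -1.56 ± 0.15, and the tissues did not overlap. Syvn1 (Hrd1), the ubiquitin ligase of the degradation channel, had 9.59, 9.51, 9.34 and 9.39 in thymus and 10.97, 10.70, 10.38 and 10.22 in spleen. The difference was -1.11 ± 0.12 (adjusted p = 8.36e-05 by limma). The spleens of mice 1 and 2 had high Actb ratios, whose part was not tested. Syvn1 was higher in these spleens than in those of mice 3 and 4. Sel1l, its adaptor, was lower by -0.43, -0.76 and -0.46, and Atf4, the transcription factor downstream of Perk, by -0.49, -0.30 and -0.72. Ddit3 (Chop), a target of Atf4 that promotes cell death, did not pass in any of the 3 (-0.29, 0.03 and -0.23, adjusted p = 0.163, 0.903 and 0.341).

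Edem1, a lectin that hands misfolded glycoproteins to degradation and is itself a known target of Xbp1, went the other way. It read 11.69, 11.66, 11.57 and 11.67 in wild type thymi, against 9.48, 9.44, 9.45 and 9.66 in peripheral node, 9.57, 9.76, 9.56 and 9.28 in mesenteric node, and 9.06, 9.16, 9.28 and 9.21 in spleen. Every thymus stood far above every other array. Edem1 was 4.42-fold higher in thymus than in peripheral node (log2 difference 2.14 ± 0.10, adjusted p = 4.63e-07), 4.30-fold higher than in mesenteric node and 5.54-fold higher than in spleen. Transgenic thymi read 11.34, 11.69, 11.31 and 11.37, and the transgenic differences were 2.09, 1.78 and 2.08. A second probe set of Edem1 gave 2.13 against peripheral node and 2.74 against spleen.

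Dnajc3 (p58IPK), a cochaperone of Hspa5, was also higher in thymus, with 10.90, 10.91, 10.87 and 10.97 against 10.60, 10.58, 10.34 and 10.32 in peripheral node and 10.37, 10.27, 10.26 and 10.22 in spleen. The thymi lay above both tissues in every mouse, by 0.45 ± 0.09 and 0.63 ± 0.09, and above mesenteric node by 0.40 ± 0.08. Srp68, a subunit of the signal recognition particle, read 10.17, 10.16, 10.08 and 10.04 in wild type thymi, 9.68, 9.83, 9.77 and 9.55 in peripheral node and 9.57, 9.21, 9.62 and 9.62 in spleen. It was higher by 0.41 ± 0.08, 0.35 ± 0.11 and 0.61 ± 0.11. Spcs2, a subunit of signal peptidase, read 11.24, 11.33, 11.23 and 11.25 in thymus against 10.92, 10.77, 10.88 and 10.90 in mesenteric node. It was higher by 0.36 ± 0.09, 0.39 ± 0.09 and 0.61 ± 0.09. In the values as deposited, without normalization, Dnajc3 stayed above 0 in all 3 comparisons but did not pass, and so did Srp68 against peripheral node and spleen and Spcs2 against mesenteric node.

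The early steps of secretion differed less. Of the 10 genes of signal recognition and import, 3, 4 and 3 were lower and 1, 1 and 2 higher, with medians of -0.10, -0.16 and -0.00. Ssr4, a subunit of the translocon-associated complex, was lower by -0.83, -0.87 and -0.28, and the channel subunit Sec61a1 by -0.53, -0.54 and -0.34. Srp9, Srp14 and Srp72, other subunits of the signal recognition particle, passed in none of these comparisons and lay between -0.15 and 0.26. In the 4 signal peptidase genes, Sec11c, a catalytic subunit, was lower by -0.28, -0.50 and -0.47 and Spcs3 by -0.48, -0.65 and -0.67, while Spcs1 lay between -0.06 and 0.05 and did not pass. Among the 4 genes of oligosaccharyl transfer, the ribophorin Rpn1 was lower by -0.49, -0.57 and -0.58, and Ostc was higher than in spleen only (0.44 ± 0.09). Rpn1 in wild type mice 1 to 4 read 11.83, 11.66, 10.99 and 10.88 in spleen and 10.77, 10.88, 10.68 and 10.71 in thymus. Its spleen difference was larger in mice 1 and 2, whose spleens had high Actb ratios. The part of RNA integrity was not tested.

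**Figure D2:**
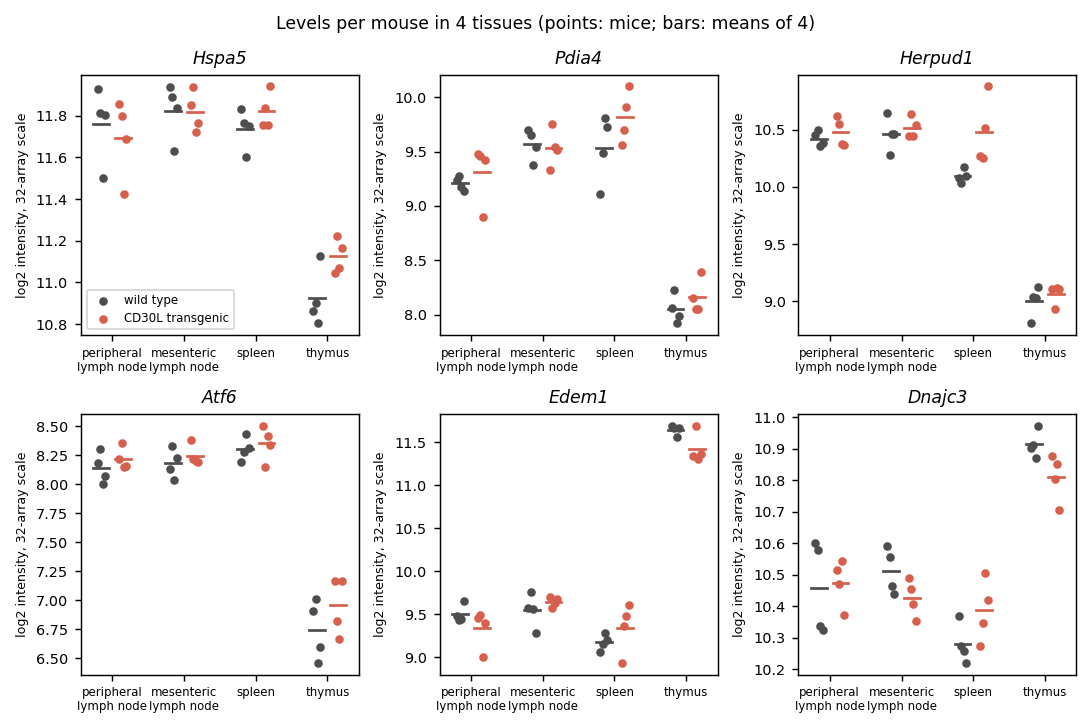
Log2 level per mouse of Hspa5, Pdia4, Herpud1, Atf6, Edem1 and Dnajc3 in the 4 tissues on the 32-array scale, with points for mice and bars for the mean of 4 mice. The thymus points are the lowest for the first 4 genes and the highest for Edem1 and Dnajc3, and the axes do not start at 0.

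The 8 genes with either stress element had a median of -0.58, -0.76 and -0.54 in the 3 thymus comparisons, with 5, 7 and 7 of 8 lower. The 22 searched and measured genes without it had -0.29, -0.35 and -0.18, with 11, 14 and 9 lower. The difference between these groups was not tested. The groups also differ in role, as none of the 8 is a gene of import, signal peptidase or oligosaccharyl transfer. Dnajc3, which holds the element shown above, was the one of the 8 that was higher. Atf6 had no promoter in the table used here, and Pdia4 and Edem1 held neither element in the window searched.

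Several cell type lists moved with the thymus. The plasma cell list (14 genes) averaged 7.20 to 7.54 in wild type thymi, 8.38 to 8.65 in peripheral nodes, 9.01 to 9.15 in mesenteric nodes and 8.88 to 9.18 in spleens. In thymus 8, 10 and 10 of its 13 genes kept were lower and 0 higher, with medians of -1.17, -1.32 and -1.24. Tnfrsf17 (BCMA), a survival receptor of plasma cells, was listed at or below 0 on all 4 wild type thymus arrays. Pou2af1, a B cell coactivator, was lower by -3.43 against peripheral node and Jchain read 10.89 to 11.76 in wild type thymi and 10.84 to 11.74 in peripheral nodes. Xbp1 read 11.51 to 11.67 in thymi and 11.53 to 11.73 in peripheral nodes. All 7 B cell genes were lower in thymus, with medians of -4.99, -4.91 and -4.32, and 7 of 8 thymocyte genes were higher, with medians of 3.53, 3.74 and 4.30 (1 was lower than in spleen). The macrophage list was lower too, in 7, 8 and 8 of 8 genes with medians of -1.30, -1.64 and -1.68, and the cell cycle list was higher in 9, 9 and 5 of 9 genes, with medians of 3.30, 2.13 and 0.64. Their part in the result was not tested. In tissue RNA, fewer cells of a type and less RNA per cell cannot be told apart.

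Other endoplasmic reticulum genes, from lists of the same pathway, are given beside these. Of the further folding genes kept, 12 of 15 were lower than in peripheral node, 13 of 16 than in mesenteric node and 9 of 15 than in spleen, where 1 was higher. Mzb1, the cochaperone of Hsp90b1 made by B and plasma cells, was lower by -2.74, -3.25 and -3.23, and the oxidase Ero1b by -2.06, -2.24 and -2.04. Of 13 further degradation genes 8, 10 and 5 were lower and 3, 1 and 2 higher. Derl3, a channel component abundant in plasma cells, was lower by -2.95 and -1.78 against mesenteric node and spleen. Of 10 further import genes 4, 4 and 1 were lower and 3, 1 and 1 higher, and Sec63, the membrane partner that recruits Hspa5, was higher by 0.50 than in peripheral node and by 0.59 than in spleen. Of 11 traffic genes 6, 6 and 3 were lower, among them the cargo receptor Lman1 (-0.60, -0.95 and -0.74) and its partner Mcfd2. Of the further stress regulators 4 of 11, 4 of 11 and 3 of 10 were lower and 1 higher in each comparison, with Ppp1r15a, which restores translation after stress, at -1.36, -1.18 and -2.94.

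Probe sets of 1 gene did not always agree. Of the 28 genes with more than 1 probe set, the next brightest gave the same sign of the thymus to peripheral node difference in 20 and the opposite sign in 8, among them Hsp90b1, Pdia6, Canx, Sec11c and Ssr4. Second probe sets of Herpud1 (-0.85), Pdia4 (-1.70), Atf6 (-1.36) and Syvn1 (-0.94) went the same way, and the 6 of Sec61a1 ran from -0.66 to 1.85. With the mean over all probe sets of each gene, 23, 26 and 23 genes passed in the 3 comparisons. In the values as deposited, 7 passed against mesenteric node, and without the 3 mice whose peripheral nodes carried muscle RNA 11 passed against peripheral node, 10 of them lower. Leaving out those 3 mice kept only mice 2 and 4 of the wild type group. The part of muscle RNA in the lower count was not tested.

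Between spleen and lymph nodes the differences were smaller. Against mesenteric node, 11 of 39 genes were lower in wild type spleen and 1 higher by limma, where 29.5% of all probe sets passed, 15.2% lower and 14.3% higher. The median was -0.23, beside -0.02 over all probe sets. Pdia3 read 10.70, 10.50, 10.92 and 10.85 in spleen and 11.42, 11.42, 11.22 and 11.44 in mesenteric node, and the tissues did not overlap. Its difference was -0.63 ± 0.14 (SE, n = 4 mice). Pdia6 read 10.07, 9.87, 9.60 and 9.54 in spleen against 10.53, 10.44, 10.17 and 10.35 (-0.60 ± 0.12), and Ssr4 10.45, 10.32, 10.69 and 10.53 against 10.96, 11.08, 11.16 and 11.15 (-0.59 ± 0.11). Ssr2, P4hb, Ostc, Srp72, Manf, Sec61b, Ddost and Rpn2 were the others lower, by -0.59 to -0.31. Atf4 was the gene higher in spleen, with 10.71, 10.74, 10.35 and 10.77 against 10.44, 10.03, 10.19 and 10.20 (0.43 ± 0.12, adjusted p = 0.0249), and it did not pass without wild type mouse 2 or without mouse 4. The count was 3 lower without the 3 mice whose mesenteric nodes carried pancreas RNA, 5 or 6 genes in either direction without any 1 wild type mouse, and 1 in the values as deposited. In transgenic mice 0 genes were higher and 2 lower (10.5% and 11.2% of all), Pdia3 among them (-0.46 ± 0.14, adjusted p = 0.0465).

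Against peripheral node, Ssr4 (-0.55 ± 0.14, adjusted p = 0.0161) and Sec61b (-0.40 ± 0.10, adjusted p = 0.0146) were lower in wild type spleen and Hsp90b1 higher (0.35 ± 0.09, adjusted p = 0.0212), 3 of 39 where 34.1% of all probe sets passed (18.8% lower and 15.3% higher). Ssr4 read 10.83, 11.11, 11.19 and 11.03 in peripheral node, above each of the spleen values given above. Sec61b read 11.54, 11.57, 11.38 and 11.28 in spleen and 11.80, 11.82, 11.93 and 11.82 in peripheral node. Hsp90b1 read 11.99, 11.81, 11.63 and 11.64 in spleen, above the 4 peripheral nodes in 2 of the 4 mice and within their range in the other two, although each mouse's spleen exceeded its own node. Hsp90b1 was lost without any 1 wild type mouse, and 0 genes passed without the 3 mice with muscle RNA in peripheral node. That last fit kept only mice 2 and 4 of the wild type group, and the part of muscle RNA was not tested. In transgenic mice Syvn1 was the gene that passed, higher in spleen by 0.46 ± 0.13 (adjusted p = 0.0425), where 19% of all probe sets passed, 8.26% higher and 10.7% lower.

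Between the nodes 0 wild type genes passed by limma (2.47% of all probe sets, 1.45% higher and 1.03% lower in mesenteric node). Of the 39 genes, 10 had an unadjusted p under 0.05 and 32 were above 0, with a median of 0.08, beside -0.03 over all probe sets. The shares of all probe sets at that p or above 0 were not computed, so the counts of 10 and 32 are not read as a result about these genes. With a common median in place of quantile normalization 13 of 39 were above 0, and with none 7. In transgenic mice 0 passed too (0.685% of all, 0.451% higher and 0.233% lower). Over the same wild type comparison, 4 of the plasma cell genes were higher in mesenteric node and 0 lower, with Jchain at 1.10, and Derl3 was higher by 2.09 ± 0.36 (adjusted p = 0.0245).

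Transgenic and wild type mice were then compared within each tissue. No gene of the 39 passed in peripheral node, mesenteric node, spleen or thymus by limma, where 0.037%, 0%, 0.0111% and 0.0037% of all probe sets did. At an unadjusted p of 0.05 the counts were 0, 0, 1 and 2 genes, beside 8.36%, 4.72%, 8.56% and 7.27% of all probe sets, and the lowest adjusted p were 0.620, 0.972, 0.565 and 0.637. The median log2 fold change was 0.02, -0.01, 0.13 and 0.07, with 25, 17, 30 and 30 of 39 above 0 (47.6%, 52.1%, 51.1% and 50% of all probe sets). Without normalization those counts were 38, 37, 11 and 36, so the direction turned in mesenteric node and spleen. With a common median they were 17, 37, 25 and 30, so it turned in peripheral and mesenteric node. No share of all probe sets stands beside these counts, and they show only that the direction depends on the scaling. Of the 39 genes 0, 0, 3 and 5 had all 4 transgenic arrays above all 4 wild type arrays (2.43%, 2.71%, 2.79% and 2.54% of all probe sets), and 0 lay below in any tissue (2.92%, 1.22%, 2.09% and 2.06%).

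**Figure D3:**
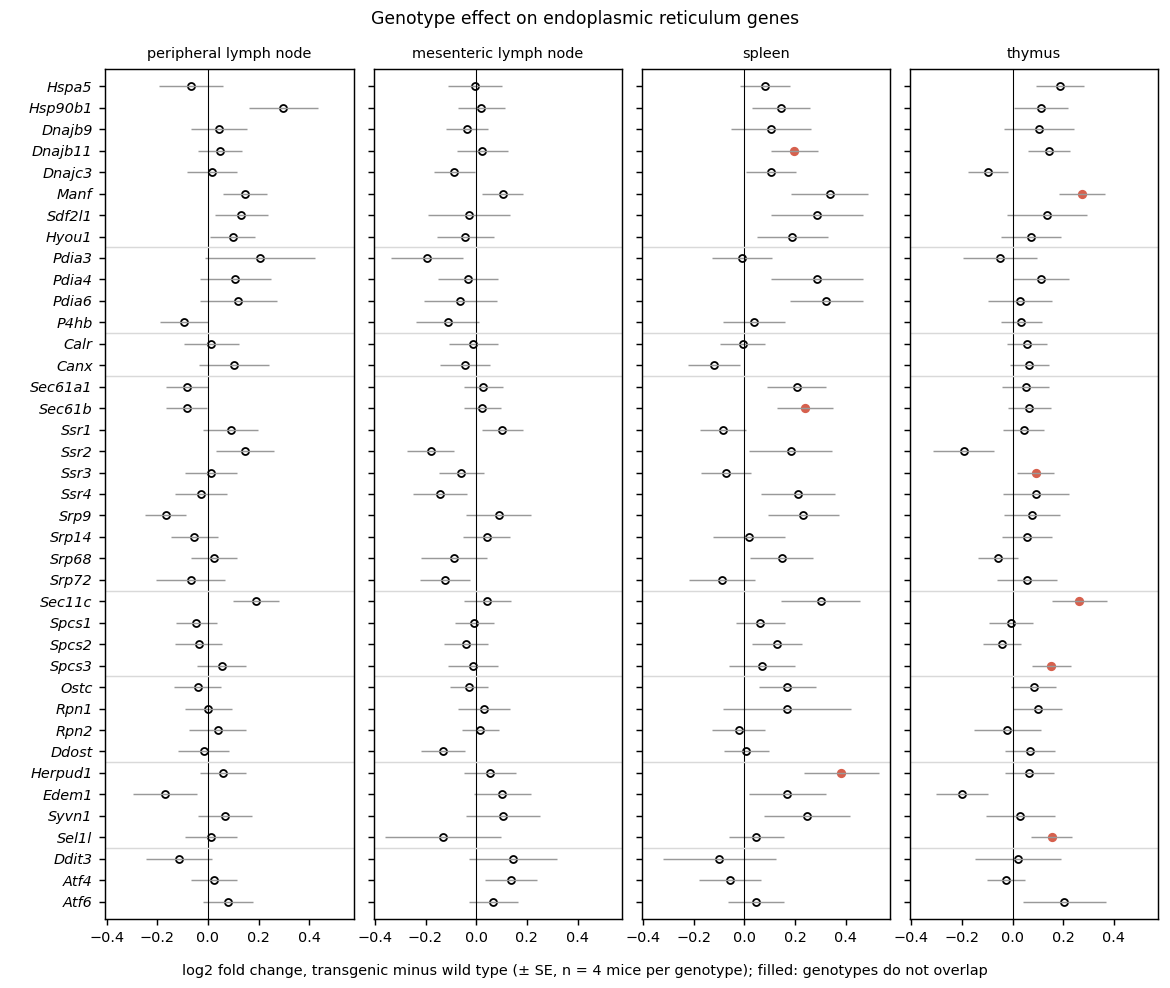
Log2 fold change of each of the 39 genes, transgenic minus wild type, in each tissue on the tissue scale, with SE and 4 mice per genotype. Filled points mark genes whose genotypes do not overlap, 3 in spleen and 5 in thymus, and no gene passed an adjusted p of 0.05.

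Manf, a secreted survival factor that is released on endoplasmic reticulum stress, was among the 6 genes of smallest p in all 4 tissues, with an unadjusted p under 0.05 in thymus only. In thymus it read 10.07, 10.14, 9.96 and 10.12 in transgenic mice 1 to 4 and 9.79, 9.94, 9.68 and 9.76 in wild type mice, with no overlap (0.28 ± 0.09, SE, unadjusted p = 0.0149, adjusted p = 0.637). In spleen it read 10.12, 10.22, 10.31 and 10.74 against 10.18, 9.85, 9.95 and 10.07 (0.34 ± 0.15, adjusted p = 0.590). In the nodes the values were 10.47, 10.53, 10.29 and 10.55 against 10.36, 10.35, 10.27 and 10.27 (peripheral), and 10.26, 10.34, 10.29 and 10.36 against 10.31, 10.17, 10.11 and 10.22 (mesenteric). Outside the thymus the genotypes overlapped. The tissues come from the same 8 mice, so these are not independent repeats.

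In thymus, the signal peptidase subunit Sec11c read 11.16, 10.70, 10.86 and 10.86 in transgenic against 10.62, 10.68, 10.62 and 10.61 in wild type mice (0.26 ± 0.11, adjusted p = 0.674). The gap to the nearest wild type value was small in transgenic mouse 2 and large in mouse 1. Spcs3 read 9.74, 9.80, 9.76 and 9.84 against 9.64, 9.70, 9.56 and 9.62 (0.15 ± 0.08, adjusted p = 0.730), Sel1l 9.31, 9.27, 9.22 and 9.37 against 9.20, 9.19, 9.06 and 9.09, and Ssr3, a subunit of the translocon-associated complex, 10.59, 10.62, 10.65 and 10.63 against 10.57, 10.52, 10.51 and 10.53. The genotypes of these 3 genes did not overlap, and Sel1l turned negative when all its probe sets were averaged. Hspa5 overlapped, with 10.96, 11.13, 10.98 and 11.07 against 10.80, 10.83, 10.73 and 11.03 (0.19 ± 0.09, adjusted p = 0.730). Edem1 had the smallest p among the genes below 0, with 11.24, 11.56, 11.20 and 11.26 against 11.56, 11.53, 11.43 and 11.54 (-0.20 ± 0.10, adjusted p = 0.735). The B cell list in thymus averaged 6.57 to 7.13 in transgenic and 6.20 to 6.47 in wild type mice, with 4 of 5 genes kept at an unadjusted p under 0.05 and Tnfrsf17 of the plasma cell list was listed at or below 0 on 2 transgenic and 4 wild type arrays. The share of all probe sets higher at an unadjusted p under 0.05 is given with the plasma cell genes below. The part of these lists in the values was not tested. The mean of the 39 genes was 0.01 higher in transgenic thymi over mice 1 and 2 and 0.11 higher over mice 3 and 4.

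In spleen, Herpud1 read 10.33, 10.32, 10.58 and 10.93 in transgenic and 10.13, 10.10, 10.24 and 10.15 in wild type mice, without overlap (0.38 ± 0.15, unadjusted p = 0.0300, adjusted p = 0.565). Sec61b, the beta subunit of the channel, read 11.65, 11.72, 11.73 and 11.86 against 11.61, 11.63, 11.44 and 11.33 (0.24 ± 0.11, adjusted p = 0.590), and 1 fit over all 32 arrays gave it an adjusted p of 0.0389. Dnajb11 read 9.85, 9.96, 9.94 and 10.06 against 9.79, 9.73, 9.72 and 9.79, and it fell to -0.01 in the values as deposited. Pdia6 (10.13, 10.15, 9.99 and 10.34 against 10.13, 9.93, 9.66 and 9.60) and Sec11c (11.46, 11.55, 11.34 and 11.71 against 11.52, 11.34, 11.09 and 10.90) overlapped. The mean of the 39 genes was 0.03 higher in transgenic spleens over mice 1 and 2, whose Actb ratios were high in both genotypes, and 0.21 higher over mice 3 and 4. For the plasma cell list the same means were 0.16 and 0.60. With the 2 sets of mice as a block 0 of the 39 genes passed in spleen by limma, where the lowest adjusted p was 0.353. The T cell list was also higher in transgenic spleen, above 0 in 7 of 7 genes with 5 at an unadjusted p under 0.05 and a median of 0.45. The share of all probe sets higher at that p is given with the plasma cell genes below. The part of the T cell list in the result was not tested.

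In peripheral node the smallest p belonged to Hsp90b1, with 11.94, 12.00, 11.61 and 11.90 in transgenic against 11.82, 11.67, 11.33 and 11.44 in wild type mice (0.30 ± 0.14, adjusted p = 0.620). Sec11c (11.29, 11.31, 11.24 and 11.44 against 11.13, 11.11, 11.27 and 11.02) and Srp9 (10.24, 10.33, 10.30 and 10.41 against 10.54, 10.41, 10.48 and 10.52) pointed opposite ways. The genotypes of these 3 genes overlapped. Edem1 (9.60, 9.64, 9.15 and 9.55 against 9.62, 9.58, 9.59 and 9.81) and Ssr2 (9.73, 10.01, 9.94 and 9.95 against 9.68, 9.72, 10.01 and 9.63) followed. In mesenteric node Ssr2 read 9.54, 9.78, 9.53 and 9.50 against 9.71, 9.86, 9.72 and 9.76 (-0.18 ± 0.09, adjusted p = 0.972). Ddost, a subunit of oligosaccharyl transferase, read 10.66, 10.77, 10.72 and 10.78 against 10.80, 11.02, 10.78 and 10.84. Pdia3 (10.74, 11.38, 11.06 and 11.19 against 11.33, 11.33, 11.12 and 11.35), Ssr4 (10.67, 10.72, 11.03 and 10.91 against 10.84, 10.97, 11.06 and 11.04) and Atf4 (10.16, 10.20, 10.20 and 10.26 against 10.29, 9.87, 10.05 and 10.05) were also among the 6 smallest p there, and each pair of groups overlapped. The test of whether the genotype effect differed between 2 tissues called 0 of 39 genes in each of the 6 pairs of tissues by limma, with 0 to 2 at an unadjusted p under 0.05. Among all probe sets that p was reached by 5.35% for mesenteric against peripheral node, 7.58% and 6.04% for spleen against the peripheral and the mesenteric node, and 9.74%, 5% and 8.4% for thymus against peripheral node, mesenteric node and spleen, and 0%, 0%, 0%, 0%, 0% and 0.0074% passed after adjustment.

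Plasma cell genes had larger fold changes between genotypes than the secretory genes, though 0 of them passed by limma either. At an unadjusted p of 0.05, 6 of 14, 3 of 14, 6 of 13 and 4 of 13 plasma cell genes were higher in transgenic peripheral node, mesenteric node, spleen and thymus, with medians of 0.30, 0.15, 0.29 and 0.26. Of all probe sets 4.21%, 3.22%, 4.21% and 3.98% were higher at that p. Eaf2, an elongation factor partner, had 1.81 ± 0.27 (adjusted p = 0.121) in peripheral node, Tnfrsf17 had 0.77 ± 0.15 in mesenteric node and 1.02 in spleen, and Pou2af1 had 0.71 in thymus. The list's mean per array was higher in transgenic mice by 0.52, 0.16, 0.38 and 0.46, while the mean of the 39 secretory genes differed by 0.03, -0.01, 0.12 and 0.06. The plasma cell mean did not overlap between genotypes in any of the 4 tissues (0.05 to 0.42 against -0.35 to -0.06 in spleen, centred log2). The secretory mean overlapped in all 4 (-0.01 to 0.19 against -0.10 to 0.01 in spleen). Some margins were narrow. In mesenteric node the lowest transgenic plasma cell mean was 0.015 and the highest wild type mean 0.002. In thymus the lowest transgenic secretory mean was -0.003 and the highest wild type mean 0.002. The cell cycle list was also higher in transgenic lymph nodes, with 9 of 9 genes at an unadjusted p under 0.05 in both, 9 and 8 of them without overlap, and medians of 1.00 (peripheral) and 0.49 (mesenteric), while in spleen 0 of 9 were above 0 (median -0.43). Among the further endoplasmic reticulum genes, which also passed in 0 cases, Mzb1 had 0.47, 0.29, 0.55 and 0.93 and Derl3 1.58 ± 0.62, 0.43 and 1.48 ± 0.39 in the lymph nodes and spleen. Creld2, a stress-induced secreted factor, had 0.77 in spleen, and Txndc11, a thioredoxin domain protein, 0.32 to 0.46 in the lymph nodes and spleen. At an unadjusted p of 0.05, 4, 2, 4 and 2 of the further folding genes were higher.

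**Figure D4:**
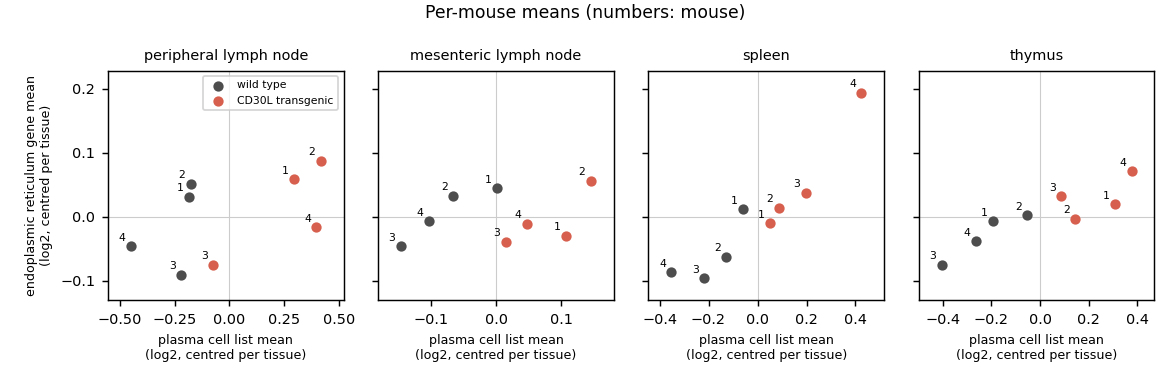
Mean of the secretory genes against the mean of the plasma cell list in each mouse, 1 panel per tissue, both centred log2 values with mouse numbers beside the points. The transgenic points lie to the right, and the vertical spread of the secretory mean is narrow, between -0.10 and 0.19.

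Whether the secretory genes followed plasma cell genes was asked mouse by mouse within a tissue, after taking out the genotype means, with Pearson's r of each gene to the plasma cell list over the 8 mice. The median r of the 39 genes was 0.31, 0.32, 0.47 and 0.22 in peripheral node, mesenteric node, spleen and thymus, beside 0.00, -0.02, 0.05 and 0.02 over all probe sets. An r above 0.5 was reached by 12, 14, 18 and 10 genes (30.8%, 35.9%, 46.2% and 25.6%), against 12.2%, 11.2%, 16.4% and 11.3% of all probe sets. Of 156 relations 21 had an exact permutation p under 0.05 (two-sided, within genotypes, 0.00174 at the smallest), 15 did so with Spearman's rho, and 0 passed after Benjamini-Hochberg adjustment, where the lowest adjusted p was 0.0985. These are therefore described and not called.

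An r above 0.5 was reached in 22 of 32 relations of chaperones (68.8%), 7 of 16 of disulfide isomerases and 7 of 16 of signal peptidase genes, against 5 of 40 of import genes (12.5%) and 2 of 16 of oligosaccharyl transfer genes. These counts describe the roles, and differences between roles were not tested. They take out genotype only, and r depends on what is taken out. With the sets of mouse numbers taken out as well, r in mesenteric node fell from 0.79 to -0.24 for Dnajc3 and from 0.64 to -0.25 for Hyou1. In spleen it rose from 0.31, 0.33 and 0.30 to 0.96, 0.94 and 0.91 for Rpn1, Rpn2 and Ddost. Hsp90b1 and Manf stayed above 0.5 in every tissue. The relations were not counted by role in that form. Of the 54 relations above 0.5 in all, 36 stayed above it without the 2 mice farthest from the median. Those 2 mice were picked in each tissue by the plasma cell mean with genotype left in. As r has genotype taken out, they need not be the mice that weigh most on it. Hsp90b1 and Manf had an r above 0.5 in every tissue (0.70, 0.83, 0.62 and 0.62 for Hsp90b1, and 0.93, 0.57, 0.72 and 0.80 for Manf), but without those 2 mice Manf in mesenteric node had 0.25 and Hsp90b1 in spleen 0.49. Hspa5, Pdia4, Pdia6, Spcs3, Dnajb11, Syvn1, Sdf2l1 and Hyou1, the last a large chaperone of the Hsp110 class, had it in 3 of 4 tissues. Another 12 genes had it in none, 8 of them subunits of import or oligosaccharyl transfer such as Ssr1, Ssr3, Srp14, Rpn2 and Ddost, and the folding genes Pdia3 and Dnajb9 were among them too. In mesenteric node, Calr read 11.97, 12.07, 11.80 and 11.83 in transgenic and 12.06, 11.95, 11.83 and 11.88 in wild type mice 1 to 4, while the plasma cell mean was 0.11, 0.15, 0.01 and 0.05 and 0.00, -0.07, -0.15 and -0.10. Within each genotype the mice fall in the same order by both values, with mice 1 and 2 above mice 3 and 4. For Calr r was 0.98 and rho 0.95 (n = 8 mice, exact permutation p = 0.00174, adjusted 0.0985), and r was 0.99 without the 2 mice farthest from the median. Hspa5 in the same node had r = 0.94 and rho = 0.95 (exact permutation p = 0.00521, adjusted 0.0985, 0.98 without the 2 mice), with 11.80, 11.91, 11.66 and 11.70 against 11.91, 11.85, 11.56 and 11.78. The r and its p take out genotype and not the sets of numbers. With the means of both taken out, an alternative chosen after seeing the data, r in mesenteric node was 0.95 for Calr and 0.79 for Hspa5. Each genotype and set then holds 2 mice whose deviations mirror each other, so this r rests on 4 differences between mice. The median r of the 39 genes was then 0.08, 0.46, 0.47 and 0.12 in peripheral node, mesenteric node, spleen and thymus, beside 0.00, 0.15, 0.05 and -0.01 over all probe sets, and 30.8%, 48.7%, 46.2% and 25.6% of the genes had an r above 0.5 against 21.3%, 30.2%, 27% and 15.9% of all probe sets.

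In thymus, Pdia4 read 8.11, 8.01, 8.01 and 8.35 in transgenic and 8.02, 8.18, 7.88 and 7.95 in wild type mice, where the plasma cell mean was 0.31, 0.14, 0.09 and 0.38 and -0.19, -0.05, -0.41 and -0.26. The highest Pdia4 value of each genotype fell in the mouse with the highest plasma cell mean. Its r was 0.92 and rho 0.95 (exact permutation p = 0.00174, adjusted 0.0985), with 0.93 without the 2 farthest mice. In spleen, Sec61b had r = 0.89 and rho = 0.90 (exact permutation p = 0.00347, adjusted 0.0985), and 0.78 without them. Some genes went the other way: Ssr4 in mesenteric node had r = -0.90 and rho = -0.90 (exact permutation p = 0.00694, adjusted 0.0985, -0.94 without the 2 mice), although Ssr4 differed strongly between thymus and nodes. Hspa5 had r = 0.09 and Herpud1 0.04 in thymus, and Pdia4 0.08 in spleen.

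**Figure D5:**
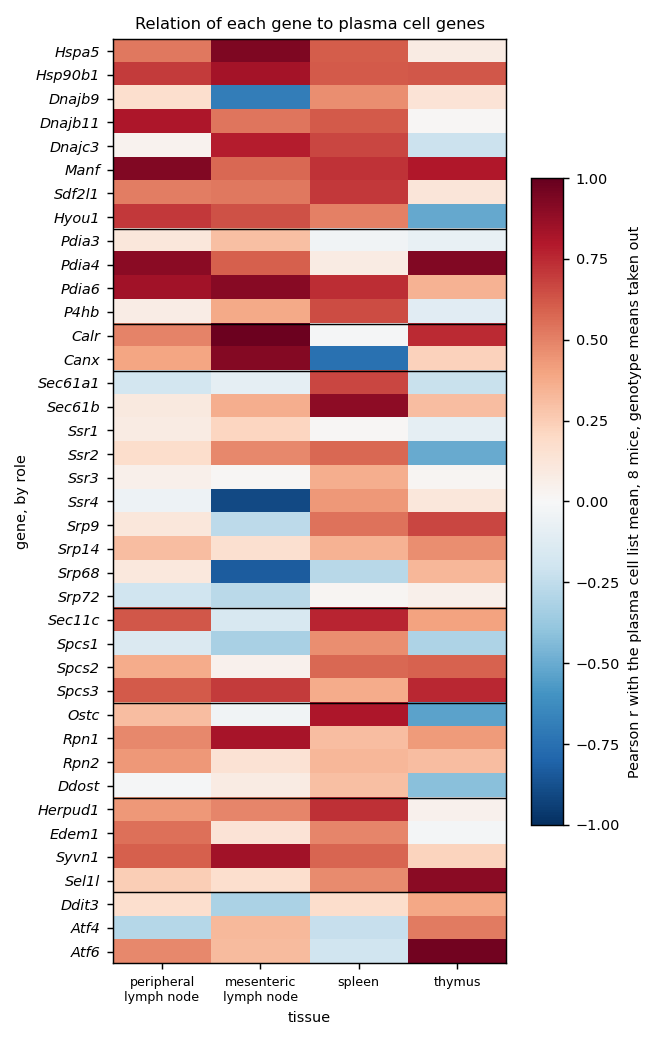
Pearson's r of each of the 39 genes to the plasma cell list over 8 mice in each tissue, genotype means taken out, with genes grouped by role. Hsp90b1 and Manf are above 0.5 in all 4 columns, while Ssr4 in mesenteric node stands at -0.90.

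Other cell type lists were set in the place of the plasma cell list. With the T cell list the median r was -0.41, -0.18, 0.47 and -0.06 in the same order of tissues, so in spleen it matched that of the plasma cell list. With the B cell list it was 0.22, 0.42, 0.15 and -0.06, above the plasma cell value in mesenteric node, and with the immunoglobulin genes 0.53, -0.06, 0.37 and 0.18. With the cell cycle list the median was 0.07, 0.33, -0.15 and 0.07. The part of these lists in the relation was not tested. In mesenteric node the median r to the pancreas list was -0.17, beside -0.14 over all probe sets, and in peripheral node that to the muscle list was 0.05.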

How the data were processed

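The authors deposited linear intensity values of 45101 probe sets per Affymetrix array, from 5 µg of biotin-labelled total RNA, per the labels' protocols. Between 14.9% and 18.4% of the values on an array were negative, so some background had been subtracted before they were deposited. The algorithm and any scaling are not stated in the labels, and the trimmed mean (2% left out at each end) ran from 106 to 273. Arrays have no read depth, and the 4 mice per genotype limit the precision. Negatives were raised to 0 and log2(intensity + 16) was computed, so fold changes of dim genes are understated. Quantile normalization ran over the 8 arrays of a tissue for genotypes and over all 32 for tissues. Without 64 control probe sets, those with a mean above the 40th percentile were kept, 27022 per comparison.

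Genotypes were compared with limma 3.58.1 in R 4.3.3, and tissues with limma on each mouse's difference between 2 tissues, where both genotypes share 1 estimate of the spread. P-values were adjusted over all probe sets kept (Benjamini-Hochberg, threshold 0.05). The table that pairs the array's probe sets with genes gave 1 symbol to 34945 probe sets, several to 932 and none to 9160. Of the probe sets with 1 symbol, 34741 had a gene identifier that matched the RefSeq table. The limma fits and the correlation were tested on simulated data. Figures were drawn with matplotlib 3.10.9. The members, the other lists (190 of their 213 genes measured) and the tests were chosen with earlier results of these data known. Every member is accounted for, and values per array are given for the 6 members of smallest p in each genotype comparison, for the 3 largest rises and falls past the threshold between tissues, and for members chosen after their values were seen, such as those in the correlations. Mouse numbers of the genotypes name different animals. Alternatives were other pseudocounts (1 and 64), scalings, filters, moderation, array weights, blocks, 1 fit over all arrays, the mean of all probe sets, and leaving out each array. Leaving out mice with muscle or pancreas RNA from the comparisons between tissues, and taking the sets of mouse numbers out of the correlations, were added after seeing the data.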

Additional observations from a re-analysis of the deposited data

Results flagged for a closer look

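In 17 of 200 groups of 4 arrays, 1 array stood apart, its gap to the nearest other exceeding Dixon's 95% critical value, where chance gives about 1 in 20. Values are on the tissue scale. In peripheral node these were Pdia4 in transgenic mouse 3 (9.04, the others 9.57 to 9.62), Sel1l in wild type mouse 3 (9.53, the others 9.82 to 9.87) and the plasma cell list mean in wild type mouse 4 (-0.45, the others -0.22 to -0.18). In mesenteric node Sel1l reached 10.49 in wild type mouse 2, whose node also carried pancreas RNA, against 9.46 to 9.59 in the others. Ssr2 stood at 9.78 in transgenic mouse 2 and Atf6 at 8.22 in transgenic mouse 1, both high, and Pdia3 at 11.12 in wild type mouse 3, low.

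In spleen, Ddost was high in transgenic mouse 4 (10.82), and Spcs3 (10.30) and Sel1l (9.62) were low in transgenic mouse 3. Atf4 was low in wild type mouse 3 (10.41, the others 10.77 to 10.82) and Srp68 low in wild type mouse 2 (9.28, the others 9.63 to 9.68). In thymus, Edem1 was high in transgenic mouse 2 (11.56, the others 11.20 to 11.26), where Herpud1 was low (8.89, the others 9.06 to 9.07). Srp9 was low (10.09) and Ssr2 high (9.88) in transgenic mouse 3, and Pdia3 was high in wild type mouse 1 (10.93).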

How the results depend on the processing

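The 3 wild type comparisons of thymus kept counts within 1.5 times under the alternatives run, except 7 genes against mesenteric node in the values as deposited and 11 against peripheral node without the 3 mice with muscle RNA. Leaving out the mice with muscle RNA kept only mice 2 and 4 of the wild type group. Spleen against peripheral node gave 7 genes with a pseudocount of 64, 1 without normalization, 13 with a common median, 5 without a filter, 7 with a filter at the 60th percentile and 0 without the mice with muscle RNA. Leaving out 1 wild type mouse gave 1 to 2 genes, 1 without mouse 2 or mouse 4. Spleen against mesenteric node gave 1 gene without normalization, 7 with a common median, 3 without the mice with pancreas RNA, and 5 to 6 without 1 wild type mouse. The nodes gave 1 gene with a pseudocount of 64 and 2 with the stricter filter. Between genotypes the median of the 39 genes without normalization was 0.18, 0.15, -0.072 and 0.15 (peripheral node, mesenteric node, spleen, thymus) and 0.15 in mesenteric node with a common median. In spleen 1 gene, Sec61b, passed in the fit over all 32 arrays. The cause of these shifts was not tested.

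Without the replicate block by mouse, spleen against peripheral node gave 9 genes, and the other wild type tissue comparisons gave 0, 17, 27, 31 and 25. With mouse number as a replicate block between genotypes 0 genes passed in each tissue. Same-numbered mice of the genotypes had correlations of their deviations from -0.44 to 0.33, so they were not taken as pairs. In spleen the sets of numbers 1 and 2 and 3 and 4 set arrays apart, and with that set as a block 0 genes passed between genotypes in each tissue.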
